A study of Hakea laurina with 6 samples.

Results

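Purple acid phosphatases are enzymes with a pair of metal ions in their active site that split phosphate from organic phosphate esters in acid surroundings. Plant roots short of phosphorus (P) make more of them, and some forms are secreted or held at the root surface, where they free phosphate from organic matter in soil, while others work inside the cell. Cluster roots, the dense bottlebrush-like clusters of short rootlets of Proteaceae, are known for releasing carboxylates and acid phosphatases into the soil around them. The results below are for 4 contigs of the *Hakea laurina* root transcriptome whose closest Arabidopsis matches are the purple acid phosphatases PAP27 (2 contigs), PAP20 (1 contig) and PAP24 (1 contig). They are 4 of 183999 assembled contigs, of 7819 contigs with an annotation and of 36 contigs annotated as purple acid phosphatases. They were chosen by name, with their higher level in mature cluster roots of these same libraries already known. The levels of the 4 contigs in both root types and their fold changes are therefore given as a description, with no test.

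Poly(A) RNA of 3 samples of mature cluster roots (MCR), whose rootlets have elongated fully, was sequenced beside 3 samples of the tips of those lateral roots that bear the clusters (TCR). All 6 came from *H. laurina* plants about 3 yr old, kept in a nutrient solution without P that received 6.4 μM NaH2PO4 every 2 to 3 months. Both root types thus came from P-limited plants, and no root at a higher P supply was sequenced. The comparison is therefore between root types and not between P supplies. Nothing in the descriptions says whether the libraries of a root type came from different plants, so the p-values measure only the spread between these samples. The titles of the libraries and the headers of the count table give the root types used here, whereas the tissue labels have MCR and TCR exchanged in all 6. Should the tissue labels be the right ones, each direction given below would turn round. Dividing cells and the root cap are found at root tips. The summed markers of dividing cells and the root cap gene found, given next, were higher in every library titled TCR than in any titled MCR. Single contigs of dividing cells with few reads ran the other way.

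The estimated counts summed to between 15718871 and 19119494 per library in MCR and between 13583740 and 16622567 in TCR. Marker genes could be followed only where an annotated contig matched them. The authors picked the annotated contigs on the contrast of MCR and TCR, so markers outside that pick could not be found. The 10 contigs matched to 8 of 14 genes of dividing cells summed to between 12.6 and 49.2 counts per 1000000 (CPM) in MCR and between 249 and 461 CPM in TCR. Among them, TRINITY_DN195092_c0_g1 and TRINITY_DN229078_c0_g1 ran the other way, with means of 2.96 and 0.665 CPM in MCR and 0.0477 and 0 CPM in TCR. The root cap gene SMB, the only 1 of 3 root cap genes found, lay between 0.561 and 0.790 CPM in MCR and between 13.2 and 40.4 CPM in TCR. The xylem genes, 3 of 5 of which were found on 5 contigs, summed to between 65.1 and 146 CPM in MCR and between 475 and 528 CPM in TCR. TRINITY_DN5687_c0_g1 and TRINITY_DN3340_c1_g1 carried most of this sum in TCR, with means of 384 and 121 CPM. The other xylem contigs, TRINITY_DN105661_c0_g1, TRINITY_DN604_c2_g1 and TRINITY_DN123049_c0_g1, ran the other way. Their means were 10.7, 4.66 and 1.21 CPM in MCR and 1.49, 0 and 0.0204 CPM in TCR. The root hair gene EXPA7, the only 1 of 5 found, had between 30.7 and 150 CPM in MCR and between 8.40 and 22.5 CPM in TCR. The suberin gene CYP86A1, 1 of 4, had between 8.94 and 51.5 CPM in MCR and between 41.0 and 118 CPM in TCR, and a chlorophyll-binding protein, 1 of 2 photosynthesis genes, had at most 1.02 CPM in MCR and between 9.19 and 20.0 CPM in TCR. Each of these sums or single genes, except the suberin gene, differed between root types without overlap. Since the annotated contigs had been picked on this contrast, this does not measure how far the make-up of the samples differed. The part of sample make-up in the results below was not tested. In these bulk samples, fewer cells of a kind and less RNA per cell cannot be told apart.

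MCR3 stood apart from MCR1 and MCR2. It had almost no reads of many contigs that both others held, and among the 32 other purple acid phosphatase contigs 12 had less than 10% of the mean of MCR1 and MCR2 in MCR3. None of the 4 contigs described here was among such contigs, and their values without each library are given below. TCR3 was like MCR3 in the number of contigs with reads, 85093 in TCR3 and 87361 in MCR3, against 95758 to 135523 in the other libraries.

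The Arabidopsis protein PAP27 (AT5G50400) has 611 residues and PAP24 (AT4G24890) has 615, whereas PAP20 (AT3G52780) has 427, so that PAP27 and PAP24 are matches of a longer form than PAP20. For comparison, PAP10 (AT2G16430), a phosphatase tied to the root surface in Arabidopsis, has 468 residues. It was the most frequent match among the annotated purple acid phosphatase contigs, with 10 contigs. In the Arabidopsis genome (TAIR10), the PAP27 gene model lies on chromosome 5 from 20523575 to 20526231, the PAP20 model on chromosome 3 from 19561525 to 19564195 and the PAP24 model on chromosome 4 from 12811510 to 12814440, all on the reverse strand. These positions belong to the matches, since the contigs were assembled without a genome. A contig named after PAP27 is not thereby the *H. laurina* counterpart of that gene. Levels are counts of reads and not reads per length, so a level is compared between libraries of 1 contig and not between contigs.

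Both PAP27 contigs were at high levels in MCR and close to the lowest detectable level in TCR. TRINITY_DN2498_c0_g1 had 144, 561 and 445 CPM in MCR1, MCR2 and MCR3, against 0.0716, 0.490 and 0.490 CPM in TCR1, TCR2 and TCR3. The root types did not overlap, and the lowest MCR library lay 294-fold above the highest TCR library. In estimated counts these were 2121, 8992 and 7313 in MCR and 1, 8 and 9 in TCR, so that the TCR level rests on 18 reads in all. A single read in TCR1 allows 0.0018 to 0.399 CPM (exact 95% binomial interval, which covers counting error only), and the 8 reads of TCR2 allow 0.212 to 0.966 CPM. Averaged by root type, this contig had 383 ± 215 CPM in MCR and 0.351 ± 0.242 CPM in TCR (SD, n = 3 each), a 1093-fold difference of the means. The ratio of its summed counts per effective library size was 1055, with an exact binomial interval of 667 to 1780 that covers counting error only. Its fitted log2 fold change, MCR over TCR, was 10.03 ± 0.91 (SE), and 10.65 without MCR1.

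TRINITY_DN10615_c0_g2, the other PAP27 contig, had the same pattern at fewer reads. Its levels were 24.8, 172 and 90.8 CPM in MCR1, MCR2 and MCR3, against 0.0716, 0.368 and 0.109 CPM in TCR1, TCR2 and TCR3. MCR1 was the lowest MCR library by far, and still 67.5-fold above the highest TCR library. The counts were 366, 2765 and 1493 in MCR and 1, 6 and 2 in TCR. The means were 96.0 ± 74.0 CPM in MCR and 0.183 ± 0.161 CPM in TCR (SD, n = 3 each), with a count ratio of 529 (279 to 1159) and a log2 fold change of 8.97 ± 1.02 (SE). The TCR level rests on 9 reads, and single libraries moved the fitted value, to 9.91 without TCR2 and 9.69 without MCR1.

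The spread between the MCR libraries was wide for both PAP27 contigs. MCR2 was 3.90-fold above MCR1 for TRINITY_DN2498_c0_g1 and 6.94-fold above it for TRINITY_DN10615_c0_g2. Both contigs had their lowest MCR level in MCR1, their middle level in MCR3 and their highest in MCR2. The first contig held 5.80, 3.25 and 4.90 reads for each read of the second in MCR1, MCR2 and MCR3, so that the pair moved together without a fixed ratio. In TCR this ratio was 1, 1.33 and 4.5, from counts of 9 or fewer. Whether they are paralogues, alleles or fragments of 1 transcript cannot be told from the files, and reads that fit both could have been split between them.

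**Figure D1:**
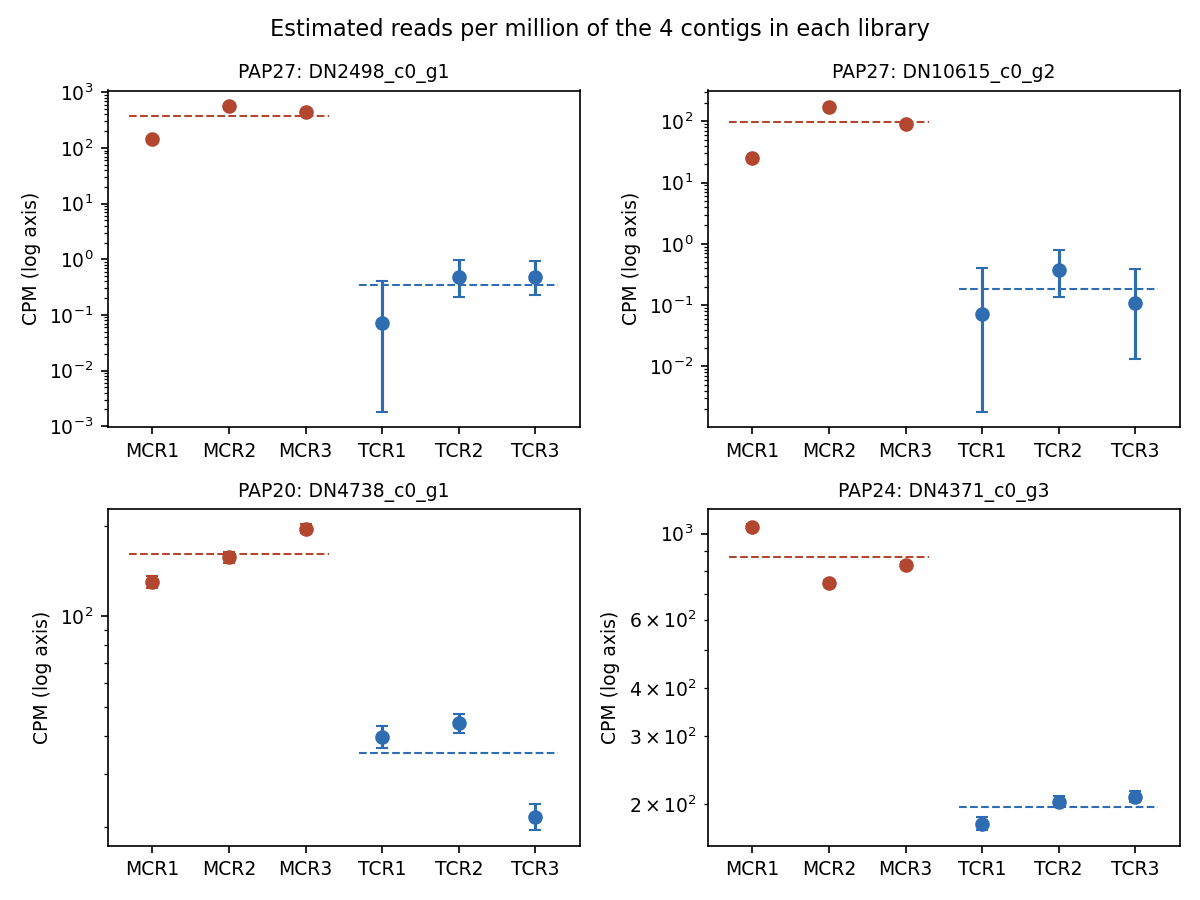
Level of each of the 4 contigs (CPM, log axis, a panel and an axis of its own for each contig) in the 3 MCR and 3 TCR libraries; bars are exact 95% intervals of the count and dashed lines are root type means. Both PAP27 contigs lie at 24.8 CPM or more in MCR and below 0.5 CPM in TCR, whereas the PAP20 and PAP24 contigs are present in both root types, with MCR above TCR.

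The PAP20 contig was expressed in both root types and higher in MCR. TRINITY_DN4738_c0_g1 had 130, 157 and 195 CPM in MCR1, MCR2 and MCR3, against 39.8, 44.1 and 21.5 CPM in TCR1, TCR2 and TCR3. The lowest MCR library was 2.95-fold above the highest TCR library, and TCR3 was the lowest of all 6. The means were 161 ± 32.8 CPM in MCR and 35.1 ± 12.0 CPM in TCR (SD, n = 3 each), a 4.57-fold difference, with a count ratio of 4.71 (4.47 to 4.97) and a log2 fold change of 2.19 ± 0.36 (SE). With 7643 reads in MCR and 1671 in TCR, counting error was small beside the spread between libraries, which was 1.50-fold in MCR and 2.05-fold in TCR. MCR3, the MCR library that stood apart, was the highest for this contig. Without it the log2 fold change was 1.94, and without MCR1 it was 2.63.

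The PAP24 contig had the most reads of the 4 and the narrowest spread. TRINITY_DN4371_c0_g3 had 1040, 745 and 831 CPM in MCR1, MCR2 and MCR3, against 178, 203 and 209 CPM in TCR1, TCR2 and TCR3. The 3 TCR libraries lay within 1.17-fold of each other and the 3 MCR libraries within 1.40-fold, and the lowest MCR library was 3.56-fold above the highest TCR library. The means were 872 ± 152 CPM in MCR and 197 ± 16.5 CPM in TCR (SD, n = 3 each), a 4.42-fold difference, with a count ratio of 4.37 (4.27 to 4.47) and a log2 fold change of 2.15 ± 0.27 (SE). MCR1 was the highest MCR library for this contig and the lowest for the other 3.

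In all 4 contigs every MCR library lay above every TCR library, which their choice on this contrast fixes. Among all 49813 contigs tested, 10.7% had every MCR library above every TCR library, and among the annotated contigs 15.0% did, while 20.3% of all had every TCR library above every MCR library. Each contig thus belongs to a sizeable group of contigs with this order, and what set the PAP27 pair beside the PAP20 and PAP24 contigs was the near absence of reads in TCR. The fold of the means was 1093 and 525 for the PAP27 contigs, against 4.57 for the PAP20 contig and 4.42 for the PAP24 contig.

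The reads of the 4 contigs were therefore made up differently in the root types. The PAP27 pair took 12.6, 44.9 and 34.3% of them in MCR1, MCR2 and MCR3, against 0.0656, 0.346 and 0.259% in TCR1, TCR2 and TCR3. The highest of the TCR shares had an exact 95% interval of 0.189 to 0.579%. The PAP24 contig took 77.7, 45.6 and 53.2% in MCR1, MCR2 and MCR3 and 81.7, 81.9 and 90.5% in TCR1, TCR2 and TCR3, and the PAP20 contig took 9.72, 9.59 and 12.5% in MCR and 18.2, 17.8 and 9.29% in TCR. The shares of the PAP20 contig overlapped between root types, while those of the other contigs did not. These shares follow from the levels on which the contigs were chosen.

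**Figure D2:**
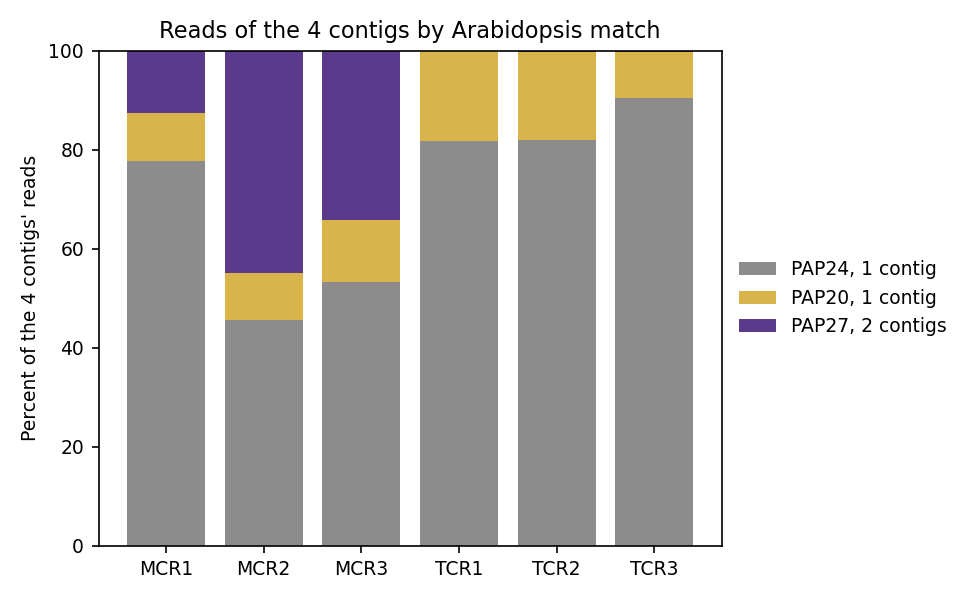
Reads of the 4 contigs in each library, in percent, by Arabidopsis match. The 2 PAP27 contigs take between 12.6 and 44.9% in the MCR libraries and less than 0.4% in the TCR libraries, where nearly all reads of the 4 belong to the PAP24 and PAP20 contigs.

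The 4 contigs were not the only matches of these phosphatases, and the other contigs of the same match were compared with edgeR's quasi-likelihood test over all 49813 contigs, with Benjamini-Hochberg adjustment. Calls required an adjusted p below 0.05 and a change of at least 1 on the log2 scale in either direction, which 8.39% of all contigs tested passed, 2.40% as higher in MCR and 5.98% as higher in TCR. Of the 7819 annotated contigs, which the authors had picked on the same contrast, 41.9% passed, 10.2% as higher in MCR. The count of 4177 contigs called depended on single libraries, with 2593, 2426 and 7460 called when MCR1, MCR2 or MCR3 was left out and 535 and 651 when TCR1 or TCR2 was left out. With the replicate number as a block, which the main fit does not hold, it was 17704. A call that is lost in a smaller fit does not show that the difference is absent.

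The PAP27 match had 4 further contigs, of which 3 were upregulated in MCR. TRINITY_DN417_c0_g1, the contig with the most PAP27 reads, had 978, 1111 and 2274 CPM in MCR1, MCR2 and MCR3, against 355, 360 and 349 CPM in TCR1, TCR2 and TCR3. Its log2 fold change was 2.04 ± 0.39 (SE; edgeR adjusted p = 0.0228). TRINITY_DN667_c2_g1 had 220, 611 and 724 CPM in MCR and 74.7, 83.2 and 58.4 CPM in TCR, and TRINITY_DN667_c2_g2 had 30.4, 40.0 and 84.9 CPM in MCR and 13.8, 15.0 and 9.25 CPM in TCR. Their log2 fold changes were 2.85 ± 0.48 and 2.03 ± 0.46 (SE; edgeR adjusted p = 0.0157 and 0.0394). All 3 were well expressed in TCR, unlike the PAP27 pair described above. Their calls were lost without any 1 of the TCR libraries, with adjusted p up to 0.141, 0.102 and 0.174 in the alternatives of edgeR, DESeq2 and limma-voom. The fourth, TRINITY_DN139518_c0_g1, had 9.43, 3.99 and 0 CPM in MCR and 0.286, 0.368 and 0 CPM in TCR, and did not pass the edgeR test (adjusted p = 0.197), but passed it with the replicate number as a block (edgeR adjusted p = 0.000895).

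Summed over the 6 PAP27 contigs, the level was 1406, 2500 and 3618 CPM in MCR1, MCR2 and MCR3, against 444, 460 and 417 CPM in TCR1, TCR2 and TCR3. That is 2508 ± 1106 CPM in MCR and 440 ± 21.5 CPM in TCR (SD, n = 3 each), a 5.70-fold difference. The near absence from TCR thus did not hold for the PAP27 match as a whole. Besides the pair, TRINITY_DN139518_c0_g1 was nearly absent there, with at most 0.368 CPM in any TCR library and at most 9.43 CPM in MCR. The pair gave 12.0, 29.3 and 14.8% of the PAP27 sum in MCR and 0.0323, 0.187 and 0.144% in TCR.

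**Figure D3:**
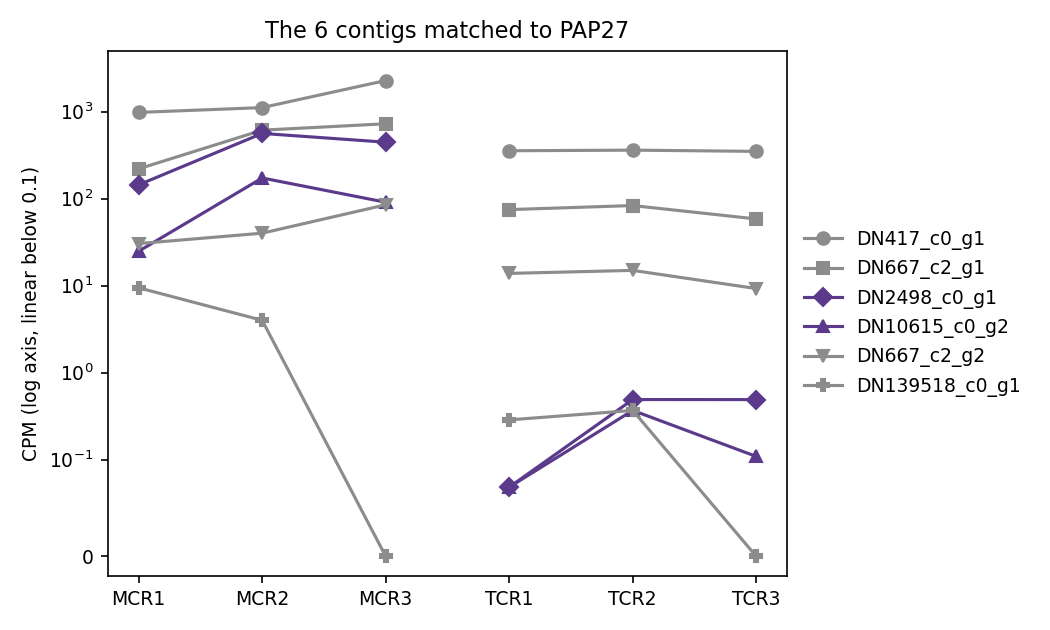
Level of the 6 contigs matched to PAP27 (CPM, log axis that is linear below 0.1) in the 3 MCR and 3 TCR libraries; lines only join the points of a contig within a root type. The pair described here, in purple, is below 0.5 CPM in every TCR library, whereas 3 other contigs, DN417_c0_g1, DN667_c2_g1 and DN667_c2_g2, stay between 9.25 and 360 CPM there. DN139518_c0_g1, in grey, is also below 0.5 CPM in every TCR library.

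The PAP24 contig shares its Trinity component, the group of contigs assembled from overlapping reads, with 3 others. TRINITY_DN4371_c0_g1, also matched to PAP24, had 34.7, 116 and 186 CPM in MCR1, MCR2 and MCR3, against 0.0716, 0.123 and 0 CPM in TCR1, TCR2 and TCR3. TRINITY_DN4371_c0_g2, the third PAP24 match, had 24.2, 187 and 61.5 CPM in MCR, against 0.0716, 0.0613 and 0 CPM in TCR. Unlike the PAP24 contig described here, both were nearly without reads in TCR, with 3 and 2 reads over all TCR libraries. Their count ratios were 1864 (638 to 9042) and 2248 (622 to 18564), and both were upregulated in MCR with log2 fold changes of 10.64 ± 1.05 and 10.84 ± 1.20 (SE; edgeR adjusted p = 0.00362 and 0.00466). The call of TRINITY_DN4371_c0_g2 was lost with limma-voom (adjusted p = 0.0764), while its edgeR and DESeq2 adjusted p was at most 0.0417 in the other alternatives. The fourth contig, TRINITY_DN4371_c0_g4, has no annotation here and had 30.9, 23.8 and 19.9 CPM in MCR and 6.73, 7.29 and 8.38 CPM in TCR, with a log2 fold change of 1.73 ± 0.33 (SE; edgeR adjusted p = 0.0235). Its call was lost without TCR1, TCR2 or MCR1 and when every contig with a read was tested, with adjusted p up to 0.158.

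Where the PAP24 contig was lowest among the MCR libraries, in MCR2, its neighbours summed held the most reads. Of them only TRINITY_DN4371_c0_g2 was highest in MCR2, while TRINITY_DN4371_c0_g1 was highest in MCR3 and TRINITY_DN4371_c0_g4 in MCR1. The sum of the 3 PAP24 matches was 1099, 1048 and 1078 CPM in MCR1, MCR2 and MCR3, against 178, 204 and 209 CPM in TCR1, TCR2 and TCR3. The MCR libraries then differed by less than for the contig alone, with 1075 ± 25.8 CPM in MCR and 197 ± 16.4 CPM in TCR (SD, n = 3 each), and the fold was 5.45. The PAP24 contig took 94.6, 71.1 and 77.1% of this sum in MCR and at least 99.9% in each TCR library. With the contig without annotation added, the component held 1130, 1071 and 1098 CPM in MCR and 185, 211 and 218 CPM in TCR, a 5.37-fold difference. Summing over components was chosen after the values were seen. How far reads of 1 locus were split over these contigs was not tested.

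**Figure D4:**
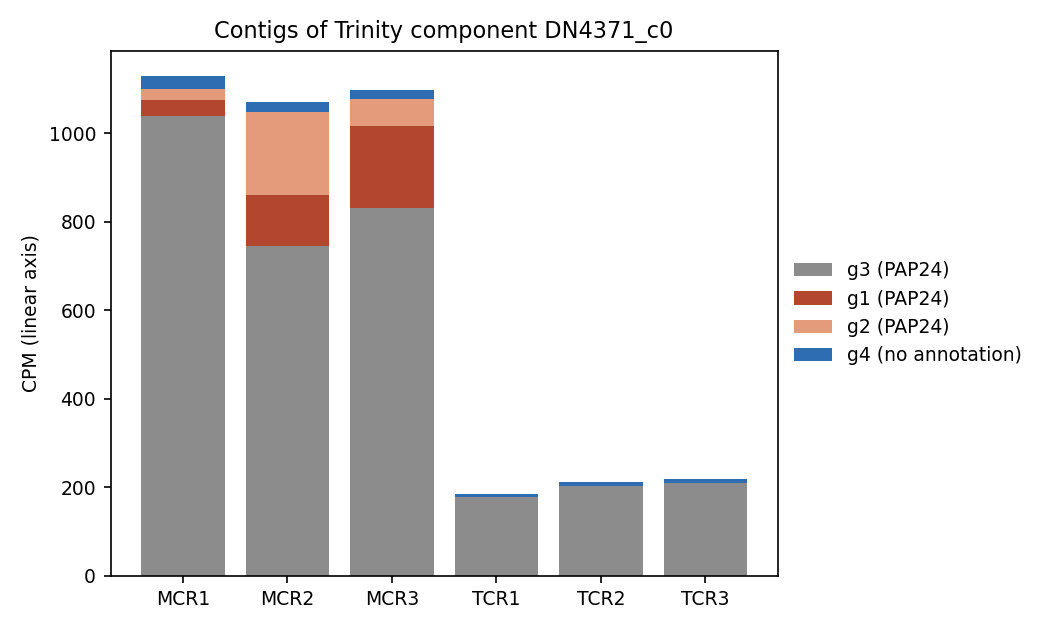
Stacked levels (CPM, linear axis from 0) of the 4 contigs of the Trinity component that holds the PAP24 contig, DN4371_c0_g3, in the 3 MCR and 3 TCR libraries. The stack reaches 1130, 1071 and 1098 CPM in MCR, and contigs g1 and g2 are visible there only, while g3 makes up nearly all of the 185 to 218 CPM in TCR.

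Contigs of the components of the other 3 had few reads. The component of TRINITY_DN2498_c0_g1 has no other contig. TRINITY_DN10615_c0_g1, beside the second PAP27 contig and without an annotation, had 11.3, 12.7 and 36.0 CPM in MCR and 6.01, 6.25 and 8.66 CPM in TCR and did not pass the test (log2 fold change 1.52 ± 0.54 SE, edgeR adjusted p = 0.141, and 0.0232 with the replicate block, which passes). Its reads outnumber those of the PAP27 contig in TCR, so that with both summed the log2 fold of the mean CPM was 4.02, in place of the fitted 8.97 for the contig alone, with 116 ± 75.1 CPM in MCR and 7.16 ± 1.42 CPM in TCR (SD, n = 3 each). Whether this neighbour is a phosphatase is unknown. Beside the PAP20 contig, TRINITY_DN4738_c0_g2 had at most 2.31 CPM and TRINITY_DN4738_c0_g3 at most 7.05 CPM in any library, and neither passed (edgeR adjusted p = 0.105 and 0.183). With the replicate block TRINITY_DN4738_c0_g2 passed and TRINITY_DN4738_c0_g3 did not (edgeR adjusted p = 0.0188 and 0.0655).

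The other contigs matched to PAP20 were reduced to almost nothing in the third library of each root type. TRINITY_DN13987_c0_g1 had 17.4, 20.0 and 0.122 CPM in MCR1, MCR2 and MCR3, against 1.86, 1.41 and 0.0544 CPM in TCR1, TCR2 and TCR3. TRINITY_DN46084_c1_g1 had 7.26, 6.36 and 0 CPM in MCR and 0.0716, 0.674 and 0 CPM in TCR. Neither passed the test (edgeR adjusted p = 0.207 and 0.215), whereas both passed with the replicate number as a block (edgeR adjusted p = 0.000142 and 0.000608). The sum over the 3 PAP20 matches was 155, 183 and 195 CPM in MCR and 41.7, 46.2 and 21.6 CPM in TCR, a 4.87-fold difference. The PAP20 contig described here took between 84.1 and 99.9% of it in MCR and between 95.4 and 99.7% in TCR.

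The 4 contigs were a minor part of the reads of the 36 annotated purple acid phosphatase contigs in both root types. The authors picked the annotated contigs on this same contrast. Phosphatase contigs outside that pick carry no annotation here and are missing from the shares and sums below. The 4 contigs took 14.4, 11.4 and 9.33% of the reads of the 36 contigs in MCR1, MCR2 and MCR3, against 14.3, 14.9 and 14.3% in TCR1, TCR2 and TCR3. The exact 95% intervals were 14.2 to 14.6%, 11.3 to 11.6% and 9.22 to 9.44% in MCR, and together spanned 13.8 to 15.3% in TCR. The share in MCR1 lay among those of TCR, while MCR2 and MCR3 were below. The family summed to 9292, 14311 and 16743 CPM in MCR and 1528, 1672 and 1623 CPM in TCR, with every MCR library above every TCR library. The 10 PAP10 contigs took 65.8, 67.2 and 61.1% of the family's reads in MCR and 49.8, 50.5 and 45.9% in TCR, with 8653 ± 2217 CPM in MCR and 784 ± 53.2 CPM in TCR (SD, n = 3 each), an 11.0-fold difference.

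Of the 32 other contigs of the family, 16 were called as higher in MCR and 0 as higher in TCR by edgeR's quasi-likelihood test, and 24 had an unadjusted p below 0.05. The share of contigs called as higher in MCR was 2.40% over all contigs and 10.2% over the annotated ones. DESeq2 called 20 as higher in MCR and 1 as higher in TCR, limma-voom 12 and 1, and edgeR with the replicate block 30 and 2. Over all contigs, these fits called 4119, 1048 and 10008 as higher in MCR, against 1196 in the main fit. Their shares over the annotated contigs were not taken. Without TCR1 or without TCR2 the number of family contigs called fell to 9 each, where 535 and 651 were called over all contigs. The median log2 fold change of the 32 was 5.11, against 0.57 over all contigs tested and 1.90 over the annotated ones, and the values ran from −2.17 to 11.58. All 32 carry an annotation, and the annotated contigs were themselves selected on this contrast, so neither the count nor the median is independent evidence of a direction.

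The share called among contigs with a mean of 10 CPM or more was not taken over all contigs. All 16 calls in the family fell among its 21 other contigs with a mean of 10 CPM or more in a root type. Besides the PAP27 and PAP24 contigs above, they were 9 of the 10 PAP10 contigs and 1 contig each matched to PAP12, which is secreted in Arabidopsis, and to AT1G13750. The PAP10 contig with the most reads, TRINITY_DN1306_c0_g1, had 2960, 2991 and 3233 CPM in MCR and 307, 342 and 250 CPM in TCR (log2 fold change 3.35 ± 0.29 SE, edgeR adjusted p = 0.00271). Near absence in TCR, as in the PAP27 pair, was also seen for the PAP10 contigs TRINITY_DN6908_c0_g1 and TRINITY_DN6749_c0_g2, with at most 0.109 and 0.123 CPM in any TCR library and 40.3 to 225 and 20.8 to 173 CPM in MCR. TRINITY_DN19657_c0_g1, the PAP12 contig, had 23.3, 44.5 and 149 CPM in MCR and 1.72, 0.674 and 2.40 CPM in TCR (log2 fold change 5.49 ± 0.88 SE, edgeR adjusted p = 0.0133). TRINITY_DN1730_c0_g1, matched to AT1G13750, had 186, 471 and 823 CPM in MCR and 3.15, 2.57 and 21.5 CPM in TCR (log2 fold change 5.76 ± 1.08 SE, edgeR adjusted p = 0.0218). The PAP12 call was lost without TCR1 or TCR2 (edgeR adjusted p = 0.0846 and 0.0662), and the AT1G13750 call without TCR1 or TCR2 (edgeR adjusted p = 0.102 and 0.0836) and without MCR2. Of the 16 calls, 6 stood under each of 13 alternative fits, namely the PAP24 contig TRINITY_DN4371_c0_g1 and the PAP10 contigs TRINITY_DN1306_c0_g1, TRINITY_DN3420_c0_g1, TRINITY_DN1270_c0_g1, TRINITY_DN6749_c0_g1 and TRINITY_DN8582_c0_g1.

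The remaining 5 of these 21 were not called. Besides the PAP20 contig TRINITY_DN13987_c0_g1, they were a PAP10, a PAP17, a PAP22 and an AT1G13900 contig. TRINITY_DN27500_c0_g2, matched to PAP17, a short form known to be induced by P starvation in Arabidopsis, ran the other way with 1.56, 6.05 and 8.45 CPM in MCR and 22.2, 29.3 and 21.1 CPM in TCR. Its log2 fold change was −2.17 ± 0.61 (SE; edgeR adjusted p = 0.0750), and the root types did not overlap. The PAP10 contig TRINITY_DN1270_c0_g2 had 170, 66.0 and 75.7 CPM in MCR and 247, 297 and 178 CPM in TCR, with a log2 fold change of −1.21 ± 0.43 (SE; edgeR adjusted p = 0.145). Both were past the threshold with the replicate block (edgeR adjusted p = 6.74e-05 and 0.00481). The PAP22 contig TRINITY_DN1335_c2_g1 and the AT1G13900 contig TRINITY_DN74_c0_g1 had log2 fold changes of 1.56 ± 0.66 and 2.08 ± 0.53 (SE; edgeR adjusted p = 0.187 and 0.0570), and both passed with the replicate block (edgeR adjusted p = 0.0163 and 2.15e-06).

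**Figure D5:**
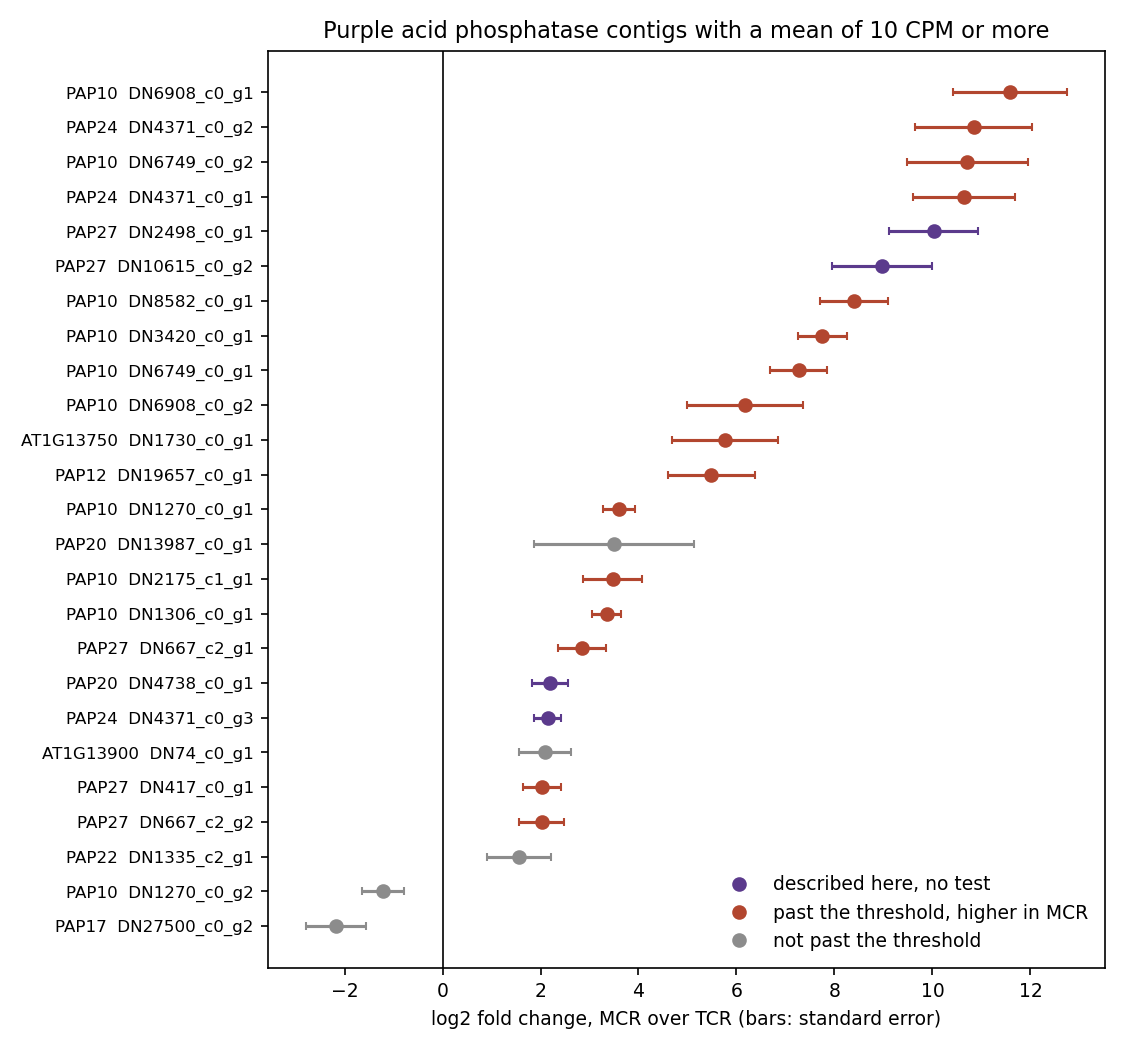
Log2 fold change of the 25 purple acid phosphatase contigs with a mean of 10 CPM or more in MCR or TCR, with its standard error; positive values are higher in MCR. The PAP27 pair in purple stands near the top at 10.03 and 8.97 and the PAP20 and PAP24 contigs in purple at 2.19 and 2.15, and 2 contigs in grey, matched to PAP10 and PAP17, lie below 0.

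MCR1 was the lowest MCR library for 3 of the 4 contigs, and for most other contigs of the family. Of the 21 other contigs with 10 CPM or more, 18 (85.7%) had their lowest MCR level in MCR1, while 2927 of 13210 contigs tested at that level (22.2%) did. The 21 are all annotated and thus picked on the contrast of MCR and TCR, unlike the 13210. No share was taken over the annotated contigs or over those higher in MCR, so this order is not shown to be particular to the family. The highest MCR level was in MCR2 for 9 of the 21 and in MCR3 for 11. The PAP24 contig was highest in MCR1. The other PAP24 contigs TRINITY_DN4371_c0_g1 and TRINITY_DN4371_c0_g2 had their lowest MCR level in MCR1.

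Contigs with a pattern like that of each of the 4 were sought among 4087 annotated contigs with 10 CPM or more, by Pearson's r of log2(CPM + 0.5) over the 6 libraries. Since r ignores the size of a change and most of it follows the difference between root types, r above 0.95 was frequent, from 179 candidates (4.38%) for the PAP20 contig to 402 (9.84%) for TRINITY_DN2498_c0_g1. The 3 most like TRINITY_DN2498_c0_g1 were a contig matched to SRC2, a gene first described as cold-induced in soybean, a contig of unknown function matched to AT1G47900 and a MATE efflux family contig, each with r = 0.999. For TRINITY_DN10615_c0_g2 they were a leucine-rich repeat kinase contig and the PAP24 contig TRINITY_DN4371_c0_g2 (r = 0.997 each) and the same AT1G47900 contig (r = 0.996). For the PAP20 contig they were an E2F/DP family contig (r = 0.996), a contig matched to the alcohol dehydrogenase ADH1 and a contig of unknown function (r = 0.995 each). For the PAP24 contig they were a contig matched to the kinase CIPK7 (r = 0.999), one matched to the hexose transporter STP13 and one of unknown function (r = 0.998 each). The CIPK7 contig, TRINITY_DN3314_c0_g1, had 238, 128 and 145 CPM in MCR and 4.72, 7.05 and 8.49 CPM in TCR, thus with MCR1 highest as in the PAP24 contig.

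Gene groups tied to P starvation were followed as the setting of the phosphatases, with 55 annotated contigs in 4 lists. A place in a list does not mean that the gene itself is induced by P starvation. Of these, 15 were called as higher in MCR, 1 as higher in TCR and 39 were not called, with a median log2 fold change of 3.68. The share called as higher in MCR was 2.40% over all contigs tested and 10.2% over the annotated ones, with medians of 0.57 and 1.90. These 55 contigs are all annotated and were thus selected on the same contrast, so the counts are not independent evidence of a direction. Without TCR1 the number called fell to 3 and without TCR2 to 5, and with the replicate block it was 53. Over all contigs, these fits called 535, 651 and 17704, against 4177 in the main fit. Phosphate transporters of the PHT1 family, which take up phosphate with protons, had 5 of 22 called as higher in MCR, membrane lipid replacement 6 of 16, ribonucleases and other phosphatases 3 of 12 and the SPX and PHO1 genes 1 of 5, with 1 higher in TCR. Among the 18 contigs with 50 CPM or more, 13 were called, all as higher in MCR. The share called at that level was not taken over all or over the annotated contigs, so this count has no like background.

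A near absence from TCR, as in the PAP27 pair, was found in TRINITY_DN16295_c0_g1, matched to PHT1;5, which had 56.7, 139 and 126 CPM in MCR and 0.358, 0.245 and 0.381 CPM in TCR (log2 fold change 8.32 ± 0.54 SE, edgeR adjusted p = 0.00161). The other PHT1 contigs called at that level were TRINITY_DN1936_c1_g1, TRINITY_DN873_c0_g2 and TRINITY_DN873_c0_g1, with log2 fold changes of 6.74, 6.67 and 2.49. Log2 fold changes between 1.34 and 3.31, a range that holds the values of the PAP20 and PAP24 contigs, were found for the secreted ribonuclease RNS1 (log2 fold change 2.43), the phospholipase NPC4 (2.01 and 3.31 for 2 contigs), the glycerophosphodiester phosphodiesterase GDPD1 (2.94), the galactolipid synthase DGD2 (2.34), the phospholipase PLDZ1 (1.69), the phosphatase PECP1 (1.95 and 1.65 for 2 contigs) and the phosphate sensor SPX1 (1.34). Contigs matched to SPX3, the sulfolipid synthase SQD2, the kinase PPCK1 and the transporters PHT1;5 (TRINITY_DN16870_c0_g1) and PHT1;6 were not called at that level, and all but the SQD2 contig passed with the replicate block. The 1 contig higher in TCR, TRINITY_DN2651_c0_g3, was matched to SPX3 and had 2.38, 1.50 and 1.58 CPM in MCR and 10.4, 9.75 and 8.11 CPM in TCR. TRINITY_DN845_c1_g1, the malate transporter HalALMT1 of the same roots, had 25.7, 28.1 and 29.0 CPM in MCR and 4.87, 4.72 and 11.8 CPM in TCR, with a log2 fold change of 1.95 ± 0.45 (SE; edgeR adjusted p = 0.0422) whose call was lost in 6 of 13 alternatives, including each fit that left out an MCR library, TCR1 or TCR2.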

How the data were processed

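Poly(A) RNA of 3 MCR and 3 TCR samples was sequenced. The authors used Trimmomatic 0.39 for trimming, Trinity for the assembly and Salmon 1.9.0 for quantification, and deposited estimated counts without normalization. How transcripts were summed to contigs is not given in the sources used here. A second deposited table lists 7819 annotated contigs, in which CPM values were normalized by the authors with 0.01 added, after contigs under 0.4 CPM were removed. Of that table the annotation (TAIR10) was used throughout. Its CPM values served only for an alternative log2 ratio of the contigs described here. The fold change, p and q columns, made with edgeR 4.0.14, were left out.

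Counts were rounded to whole numbers. The 49813 contigs with a mean of at least 0.4 CPM in a root type were tested with edgeR 4.0.16 in R 4.3.3 (TMM factors 0.868 to 1.18, quasi-likelihood test, Benjamini-Hochberg adjustment). CPM values printed use the TMM-scaled library size. On simulated data with 42182 contigs, 120 of 200 contigs changed by a log2 fold of 3 were called (60%), with 5 false calls. Intervals are exact at 95% (scipy 1.17.1) and cover counting error only. An exact permutation test of 3 against 3 libraries cannot go below 0.1. The alternatives were other filters, RLE or library size scaling, DESeq2 1.42.0, limma-voom (limma 3.58.1), a replicate block, no fold minimum and each library left out. For the log2 fold changes of the contigs described here, the ratio of the authors' mean CPM values and the sum over the Trinity component were added.

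The replicate numbers come from the sample titles. Deviations from the root type means correlated by 0.336 between MCR1 and TCR1, 0.363 between MCR2 and TCR2 and 0.477 between MCR3 and TCR3, across 14706 contigs above 5 CPM. Every same-numbered pair was above 0.1, and the numbers were therefore tried as a block in an alternative fit. The main fit did not pair the samples. MCR1 with TCR2 and MCR2 with TCR1 were above 0.1 as well, so these correlations do not establish the pairs. Numbers 1 and 2 are hardly told apart, with 0.316 between MCR1 and TCR2 and 0.185 between MCR2 and TCR1, while both MCR3 and TCR3 correlated negatively with the libraries of other numbers in the other root type.

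The 4 contigs and all gene lists were chosen with earlier results of these data known. Named are the 4 contigs, all other PAP20, PAP24 and PAP27 contigs, other purple acid phosphatases from 10 CPM, contigs of the same Trinity component from 1 CPM, the 3 contigs most like each, P starvation contigs from 50 CPM, and HalALMT1. The SPX3 contig higher in TCR was named after its values were seen. No contig sequences or lengths were used here.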

Additional observations from a re-analysis of the deposited data

How the results depend on the processing

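The log2 fold changes of the 4 contigs kept their sign under 15 alternatives each, and 53 of the 60 values moved by less than the spread between replicates. Leaving out each library gave 9.59 to 10.65 for TRINITY_DN2498_c0_g1, 8.53 to 9.91 for TRINITY_DN10615_c0_g2, 1.94 to 2.63 for TRINITY_DN4738_c0_g1 and 2.08 to 2.50 for TRINITY_DN4371_c0_g3. The last was also 2.48 with filterByExpr, 2.41 with RLE size factors and with DESeq2, 1.95 with library size alone and 2.43 summed over its Trinity component, and TRINITY_DN10615_c0_g2 was 4.02 summed over its component. The replicate block gave values between 2.13 and 10.11 over the 4 contigs. Testing every contig with a read called 9240 contigs in all, 32 other purple acid phosphatase contigs and 55 starvation contigs; the replicate block called 17704, 32 and 53; DESeq2 called 9187 in all. Leaving out each library gave 535 to 7460 contigs in all, 9 to 24 of the family and 3 to 24 of the starvation lists. Of the contigs called, 53.7% were higher in MCR when every contig with a read was tested and 56.5% with the replicate block. In the other fits this share lay between 19.8 and 44.8%. Among these it was 28.6% under TMM in the main fit, 39.8% under RLE and 19.8% under scaling by library size. In the same order, the contigs tested had median log2 fold changes of 0.57, 0.84 and 0.37. Of the 12 contigs most like the 4, 7 were kept with 0.1 CPM added and 1 on deviations from root type means. The causes were not tested. Depth limits the TCR level of the PAP27 contigs, which rests on 18 and 9 reads.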
